A study of Mus musculus with 8 samples.

Results

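The genes described here are Fgf21, which encodes the secreted metabolic hormone FGF21, the genes of its receptor complex (Klb, Fgfr1, Fgfr2 and Fgfr3), and Angptl4, an angiopoietin-like factor. They were chosen by name, as every probe set that the array annotation pairs with one of them. Of 7 genes listed, 6 were measured, by 11 of the 22690 probe sets of the array. Angptl2, the other listed gene, is paired with no probe set in the annotation used here and was not analysed here. Adipocytes had been differentiated in culture from stromal-vascular (SV) cells of the inguinal white fat of male C57BL/6J mice, and their RNA was hybridized to Affymetrix mouse arrays. All cells carried an shRNA, either sh-scr, the control, or sh-PRDM16, named for a factor that promotes the brown fat programme. Both kinds of cell were grown with rosiglitazone, a thiazolidinedione that activates the nuclear receptor PPARγ, at 1 µM, or with no agent. The 4 groups that this makes had 2 arrays each, 8 in all, called biological replicates in the labels with no word on separate cultures or animals. The p-values therefore measure only the spread between these arrays, which may be technical, and the number of arrays limits the precision.

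FGF21 acts as an endocrine factor on cells that make both an FGF receptor and β-Klotho, the membrane co-receptor encoded by Klb. Without β-Klotho its affinity for the receptor is low, and in white fat the receptor thought to carry its signal is FGFR1. Fgf21 is transcribed under PPARα in liver and can be induced by PPARγ agonists in fat cells. Angptl4 encodes a secreted inhibitor of lipoprotein lipase, the enzyme that releases fatty acids from circulating triglyceride, and is a textbook PPAR target.

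Values are array intensities on the scale deposited by the authors. Changes are differences of log2(intensity + 16), which understate the fold of dim probe sets, and the words rose and fell are kept for an adjusted p under 0.05 in limma over all 9294 genes tested. Where a gene had several probe sets the one of highest mean stood for it, and all 6 measured genes lay above the filter that removed the dimmest 25% of genes. Array medians ran from 101 to 136. Over all genes the median shift was log2 -0.31 for rosiglitazone in sh-scr cells, 0.00 for rosiglitazone in sh-PRDM16 cells, and -0.16 and 0.15 for sh-PRDM16 against sh-scr cells without and with the drug. Many counts of calls are therefore also given on arrays centred on their medians, and a count given without this may differ there. There 14.2% of all genes rose and 11.9% fell with the drug in sh-scr cells. On those centred arrays 9.87% fell in sh-PRDM16 cells, and 12.3% were lower in treated sh-PRDM16 than treated sh-scr cells. Other shares on centred arrays are not given here, among them those between the untreated lines. Centred counts without a share cannot be set against genes in general. The summed intensity of 10 adipocyte markers was 69733 to 70703 in untreated sh-scr arrays and 64768 to 68469 in treated ones, and 44790 to 51192 in untreated and 57902 to 62165 in treated sh-PRDM16 arrays. No probe set is paired with Prdm16 here, so the sh-PRDM16 label could not be checked against the RNA it targets.

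Fgf21 went from near the floor of the arrays to a clear signal in every treated array, in both lines. Its probe set, 1422916_at, read 7.1 and 21.3 in untreated sh-scr cells and 216.2 and 228.3 in treated sh-scr cells. It read 10.4 and 10.9 in untreated sh-PRDM16 cells and 268.9 and 241.0 in treated sh-PRDM16 cells. All 4 treated arrays lay far above all 4 untreated arrays, and the lowest treated sh-scr value was 10.2 times the highest untreated one. In the sh-PRDM16 line that ratio was 22.1. The untreated values stood at the 17.3rd to 25.5th percentile of all probe sets on their arrays and the treated ones at the 60.2nd to 63.8th.

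In sh-scr cells Fgf21 rose by log2 3.02 (SE 0.20, adjusted p = 3.9e-05). In sh-PRDM16 cells it rose by log2 3.34 (SE 0.20, adjusted p = 1.3e-05). Since the untreated signal was so low, the size depends on the pseudocount. With 1 in place of 16 the rises were log2 4.05 and 4.46, and with 64 they were 1.88 and 2.09. The shRNA made no difference that passed the test, and at the untreated signal, near the floor, a fall could hardly be seen. Against sh-scr cells the change was log2 -0.14 without drug (95% interval -0.60 to 0.32, adjusted p = 0.694) and 0.18 with drug (95% interval -0.27 to 0.64, adjusted p = 0.548). The response in sh-PRDM16 cells exceeded that in sh-scr cells by log2 0.32 (95% interval -0.32 to 0.97, adjusted p = 0.433). Markers of liver and muscle, which also make Fgf21, were read beside it. Of 9 hepatocyte markers measured, 0 lay above the filter on dim genes, and their summed intensity was 64 to 164 over the 8 arrays. Of 10 skeletal muscle markers 4 were bright enough to test. With the drug 3 of them fell in sh-scr cells (1, Acta1, on median-centred arrays) and 0 in sh-PRDM16 cells, beside 32.2% and 3.31% of all genes. The summed intensity of all 10 was 2357 to 2412 in untreated and 976 to 1161 in treated sh-scr arrays, and 3510 to 3805 and 2879 to 2970 in the sh-PRDM16 arrays, most of it from Acta1. The part of either cell type in the Fgf21 change was not tested.

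The sequence before the start site of Fgf21 is shown because this gene had the largest response of the 6, together with that of Klb, which also rose with the drug. RefSeq windows were at hand for 5 of the 7 listed genes. Each run below is the 250 bases before the start site, 5′ to 3′ on the strand of the gene, in GRCm38.p6. Fgf21 lies on the minus strand at chr7:45615491-45615740 and Klb on the plus strand at chr5:65348161-65348410. Capitals mark matches, on either strand, to any of 5 motifs. One is the nuclear receptor half-site AGGTCA, and another is the DR1 element, a pair of such half-sites 1 base apart that PPAR and RXR bind, searched with its variable bases left free. The half-site can lie within a DR1 element. The others are TGATGCAA, an element bound by ATF4 with C/EBP factors, the E-box (CACGTG) and the TATA box (TATAAA).
Fgf21: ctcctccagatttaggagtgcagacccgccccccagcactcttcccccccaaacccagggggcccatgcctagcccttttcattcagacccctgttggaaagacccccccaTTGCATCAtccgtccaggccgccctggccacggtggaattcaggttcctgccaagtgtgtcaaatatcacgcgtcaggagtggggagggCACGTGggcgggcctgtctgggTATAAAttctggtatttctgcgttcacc
Klb: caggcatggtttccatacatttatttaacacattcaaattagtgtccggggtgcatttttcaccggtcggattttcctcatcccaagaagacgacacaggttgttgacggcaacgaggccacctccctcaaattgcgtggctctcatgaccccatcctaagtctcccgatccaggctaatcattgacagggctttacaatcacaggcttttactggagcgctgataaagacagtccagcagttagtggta
The Fgf21 window holds TGATGCAA on the opposite strand, 139 to 132 bases before the start, the E-box at 50 to 45 and the TATA box at 28 to 23. Among all 32851 RefSeq windows of this length, 0.791% hold the first of these, 6.02% the E-box and 12.4% the TATA box. The half-site is in 14% of all windows and the DR1 element in 0.338%, and neither is in either window shown. The Klb window holds none of the 5 motifs. These are matches of letters in a short stretch, and sequence farther from the start was not read.

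**Figure D1:**
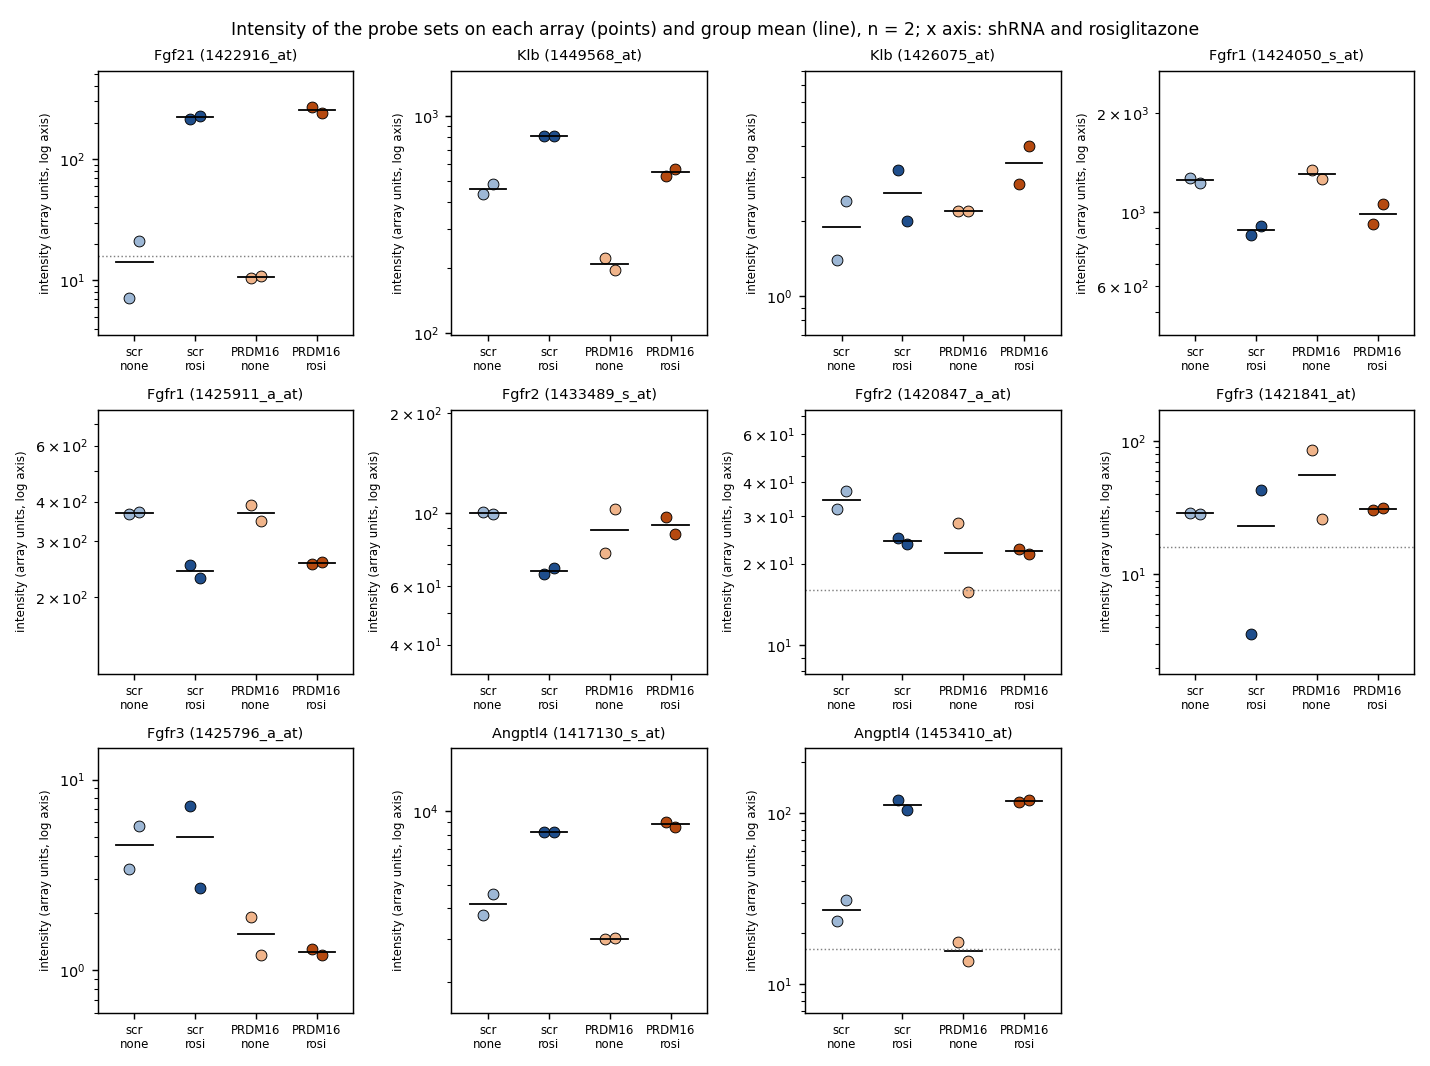
Intensity (array units, log axis, a separate range in each panel) of the 11 probe sets in the 4 groups; points are the 2 arrays of a group, the black line is their mean, and the dotted line marks an intensity of 16 where it falls in range. Fgf21, the bright Klb probe set 1449568_at and both Angptl4 probe sets are higher in treated than in untreated arrays of each line, and the Klb probe set 1426075_at and the Fgfr3 probe set 1425796_a_at stay below 16 on all arrays.

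Klb, the co-receptor gene, was the only one of the 6 genes that rose with the drug and was also lower in sh-PRDM16 cells in both drug conditions. Its probe set 1449568_at read 438.5 and 484.4 in untreated sh-scr cells, 812.1 and 807.2 in treated sh-scr cells, 222.0 and 195.7 in untreated sh-PRDM16 cells, and 532.3 and 568.4 in treated sh-PRDM16 cells. No pair of groups overlapped: untreated sh-PRDM16 was lowest, then untreated sh-scr, treated sh-PRDM16 and treated sh-scr. With rosiglitazone Klb rose by log2 0.79 in the sh-scr line (SE 0.13, adjusted p = 0.00368). In the sh-PRDM16 line the rise was log2 1.33 (SE 0.13, adjusted p = 2.0e-04). Without drug the sh-PRDM16 line differed from the sh-scr line by log2 -1.09 (SE 0.13, adjusted p = 7.1e-04), among the lowest 3% of all changes. With drug the difference was log2 -0.54 (SE 0.13, adjusted p = 0.025).

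The drug-treated difference of Klb was the less secure of the pair. Leaving out treated sh-scr replicate 1 or 2 gave adjusted p = 0.0875 or 0.12, and leaving out treated sh-PRDM16 replicate 1 or 2 gave adjusted p = 0.11 or 0.0864. Tested by limma over all 20380 probe sets with 1 gene, 1449568_at was not called for the drug-treated difference (adjusted p = 0.0616). A second Klb probe set, 1426075_at, read between 1.4 and 4.0 on all arrays, at the floor, and passed no test. Averaging it with the bright one changed the rises to log2 0.42 and 0.71 and the fall without drug to -0.53, all still called, and the fall with drug to -0.24 (adjusted p = 0.218). Other markers moved beside the lower Klb. Between the lines 15.5% of all genes were lower in sh-PRDM16 cells without drug, and with drug 4.62% were lower and 10.6% higher. Of 10 adipocyte markers, 8 were lower in untreated sh-PRDM16 than sh-scr cells, and 3 were lower and 1 higher in treated ones. On median-centred arrays 8 and 7 were lower. Of 11 macrophage and leukocyte markers tested, 9 and 10 were lower, with summed intensities (over 12 measured) of 5452 to 6010 and 3550 to 3553 in untreated and treated sh-scr arrays against 1096 to 1181 and 890 to 906 in the sh-PRDM16 arrays. The part of these in the Klb difference was not tested, and in such cultures fewer cells of a type cannot be told apart from less RNA per cell.

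Fgfr1, the main FGF receptor gene of fat, was modestly lower with rosiglitazone. Probe set 1424050_s_at read 1269.1 and 1229.5 in untreated and 852.9 and 912.2 in treated sh-scr cells, and 1342.7 and 1264.1 in untreated and 925.8 and 1058.1 in treated sh-PRDM16 cells. In both lines every treated value was below every untreated one. Probe sets with this suffix (_s_at), also among those of Fgfr2 and Angptl4, can match transcripts of more than 1 gene. In sh-scr cells Fgfr1 fell by 0.49 on the log2 scale (SE 0.13, adjusted p = 0.0191), where the median gene changed by -0.31. With arrays centred on their medians the change was -0.20 (adjusted p = 0.164), and leaving out any of the 4 sh-scr arrays ended the call (adjusted p = 0.0735 to 0.0989). In sh-PRDM16 cells the change was log2 -0.39 (SE 0.13, adjusted p = 0.0808), at a median of all genes of 0.00, and it passed on median-centred arrays at -0.41 (adjusted p = 0.0239).

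A second Fgfr1 probe set gave the same picture. Probe set 1425911_a_at read 365.1 and 370.6, then 253.2 and 230.4 with drug in sh-scr cells, and 389.3 and 347.2, then 254.1 and 258.6 with drug in sh-PRDM16 cells. Tested over all 20380 probe sets with 1 gene, its changes were log2 -0.58 (SE 0.12, adjusted p = 0.0284; 13.4% of all probe sets fell) and -0.49 (SE 0.12, adjusted p = 0.0669). Between the lines, Fgfr1 differed by log2 0.06 without drug (95% interval -0.23 to 0.35, adjusted p = 0.799) and 0.16 with drug (95% interval -0.13 to 0.46, adjusted p = 0.401). Preadipocyte markers were lower in the same treated sh-scr arrays as Fgfr1: 5 of 7 tested fell (32.2% of all genes). The summed intensity of the 9 measured went from 15070 to 15516 down to 8289 to 9370. In sh-PRDM16 cells 1 of 7 fell (3.31% of all genes), with sums of 13338 to 15698 untreated and 10688 to 11599 treated. On median-centred arrays 4 fell in sh-scr and 5 in sh-PRDM16 cells. Their part in the Fgfr1 change was not tested.

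Fgfr2 and Fgfr3, receptor genes best known from epithelium, bone and cartilage, gave low signals. The brighter Fgfr2 probe set, 1433489_s_at, read 100.8 and 99.3 in untreated and 65.4 and 68.0 in treated sh-scr cells, a fall of 0.49 on the log2 scale (SE 0.15, adjusted p = 0.0328). In sh-PRDM16 cells it read 75.5 and 102.6 untreated and 97.3 and 86.2 treated, so the groups overlapped (log2 0.05, adjusted p = 0.887). The fall in sh-scr cells was not called on median-centred arrays (log2 -0.20, adjusted p = 0.503), and leaving out any of the 4 sh-scr arrays ended it (adjusted p = 0.104 to 0.119). The difference between the responses was log2 0.54 (95% interval 0.06 to 1.02, adjusted p = 0.176), which did not pass. In the limma fit over all probe sets 1433489_s_at was not called for the fall in sh-scr cells (adjusted p = 0.0697). The dimmer Fgfr2 probe set, 1420847_a_at, read 15.7 to 37.0 over the 8 arrays and passed no test. Between the treated lines the Fgfr2 probe sets went opposite ways, and neither was called. The brighter was higher in both sh-PRDM16 arrays (log2 0.38, adjusted p = 0.192 in limma over all probe sets). The dimmer was lower in both (log2 -0.07, adjusted p = 0.846 in the same fit).

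Fgfr3 could not be ranked between groups. Its brighter probe set, 1421841_at, read 29.1 and 28.2 in untreated sh-scr cells, 3.6 and 42.7 in treated sh-scr cells, 86.3 and 26 in untreated sh-PRDM16 cells and 30.5 and 31.6 in treated sh-PRDM16 cells. A single array set each of the 2 wide ranges: treated sh-scr replicate 1 was low and untreated sh-PRDM16 replicate 1 was high. Fgfr3 passed in none of the 5 contrasts, and each of its standard errors was at least log2 0.49. The other Fgfr3 probe set, 1425796_a_at, read 1.2 to 7.3.

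Angptl4, the lipoprotein lipase inhibitor gene, rose with rosiglitazone in both lines. Probe set 1417130_s_at read 3744.7 and 4581.0 in untreated and 8221.0 and 8225.6 in treated sh-scr cells, and 3005.8 and 3016.5 in untreated and 9012.2 and 8628.0 in treated sh-PRDM16 cells. Treated values stood at the 98.3rd to 98.6th percentile of their arrays. The rises were log2 0.99 in sh-scr cells (SE 0.14, adjusted p = 0.00172) and 1.55 in sh-PRDM16 cells (SE 0.14, adjusted p = 1.1e-04). A dimmer probe set of the gene, 1453410_at, read 23.3 and 30.9 untreated and 119.4 and 103.6 treated in sh-scr cells, and 17.6 and 13.7 untreated and 116.0 and 118.6 treated in sh-PRDM16 cells. It rose by more, log2 1.57 (SE 0.14, adjusted p = 0.00388) and 2.08 (SE 0.14, adjusted p = 9.3e-04) over all probe sets, of which 2.70% and 4.51% rose. The 2 probe sets moved the same way, and whether their rises differ in size was not tested.

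The lines differed in Angptl4 without drug only at the edge of the threshold. Untreated sh-PRDM16 cells were lower than untreated sh-scr cells by log2 -0.46 (SE 0.14, adjusted p = 0.0477), and the values did not overlap. Leaving out any 1 of the 8 arrays ended the call (adjusted p = 0.0579 to 0.376), as did median-centring (log2 -0.27, adjusted p = 0.149) and fitting the replicate number as a block (adjusted p = 0.074). In the probe-set fit 1417130_s_at had adjusted p = 0.0956 and 1453410_at adjusted p = 0.127. With drug the lines differed by log2 0.10 (95% interval -0.21 to 0.41, adjusted p = 0.63).

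**Figure D2:**
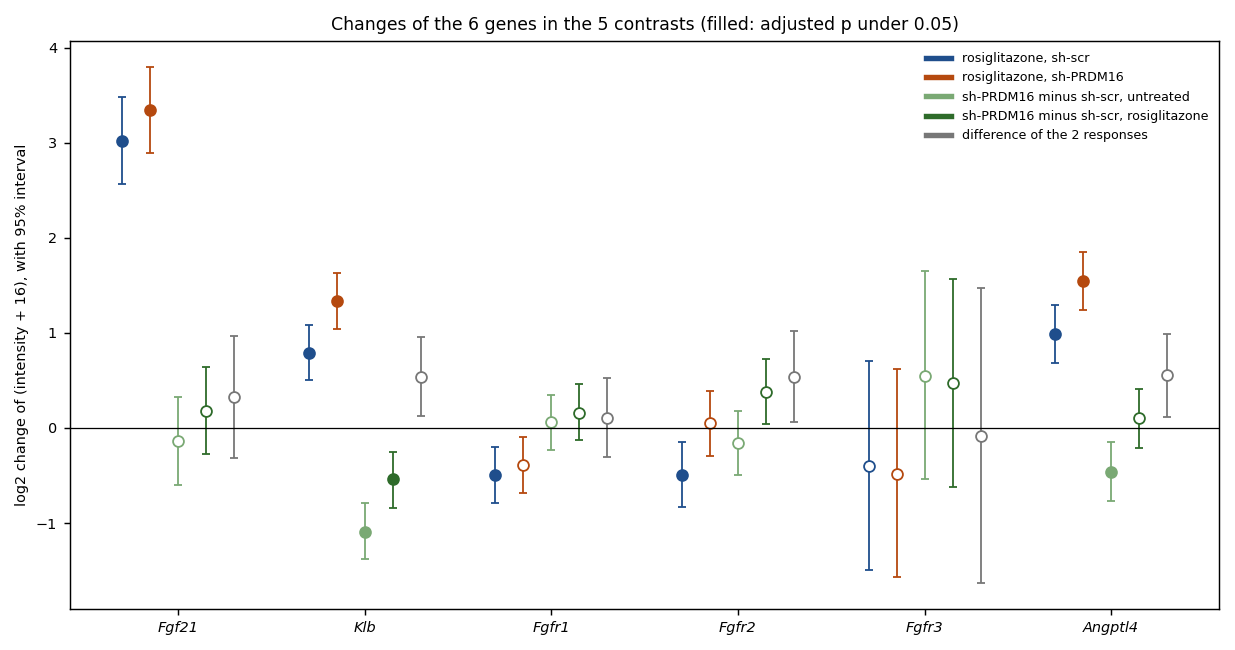
Change of each of the 6 genes in the 5 contrasts, as log2 of (intensity + 16), with 95% intervals from limma; filled points passed an adjusted p of 0.05, colours name the contrast. Fgf21 stands at 3.02 and 3.34 for the drug and near 0 for the shRNA, while Klb lies above 0 for the drug and below 0 for the shRNA.

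Counted together, 3 of the 6 genes rose with rosiglitazone in sh-scr cells (5.20% of all genes tested rose) and 2 fell (32.2% of all genes fell), so the share of falls was near that of genes in general. In sh-PRDM16 cells the same 3 genes, Fgf21, Klb and Angptl4, rose (10.1% of all genes) and 0 fell (3.31%). The median change of the 6 was log2 0.20 in sh-scr and 0.69 in sh-PRDM16 cells. Between the lines without drug, 0 were higher (1.99% of all genes) and 2 lower in sh-PRDM16 cells (15.5% of all genes), with a median of log2 -0.15. With drug 0 were higher (10.6% of all genes) and 1 was lower (4.62%), with a median of 0.17. The test of the difference between the 2 drug responses called 0 of the 6 in limma, 3 of them at an unadjusted p under 0.05, where 0.667% of all genes were called. These 3 were Klb at log2 0.54 (95% interval 0.13 to 0.96, adjusted p = 0.155), Angptl4 at 0.56 (95% interval 0.12 to 0.99, adjusted p = 0.158) and Fgfr2. All genes had a median difference of 0.33. On median-centred arrays the values for Klb and Angptl4 were 0.23 (adjusted p = 0.372) and 0.25 (adjusted p = 0.557). Angptl4 passed with a trended variance prior (adjusted p = 0.00604). With the dimmer 50% of genes left out, it passed at adjusted p = 0.0432 and Klb at adjusted p = 0.0488.

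For Fgf21, Klb and Angptl4 the genes of most similar profile over the 8 arrays were listed. Likeness is Pearson's r of log2(intensity + 16), among 1246 other genes whose group means spanned at least log2 1. The 8 arrays form 4 groups of 2, so a high r mainly describes equal group patterns. Nearest to Fgf21 was Ppargc1b (r = 0.995), a co-activator of mitochondrial and lipid genes, at mean intensities of 148 and 568 without and with drug in sh-scr cells and 140 and 641 in sh-PRDM16 cells. Car4, a carbonic anhydrase (0.994), Pim3, a kinase (0.988), Cyp4b1, a cytochrome P450 (0.987), and Hsd17b11, a lipid droplet dehydrogenase (0.985), followed. Nearest to Klb were H2-Q10 (0.999), the peroxisome biogenesis gene Pex16 (0.998), the fatty acid oxidation genes Decr1 (0.998) and Hadh (0.997), and the TCA cycle gene Idh3b (0.997). H2-Q10 has close paralogs that can share hybridization. Decr1, for example, read 4120 and 6580 in sh-scr and 1960 and 4630 in sh-PRDM16 cells, in the same order of groups as Klb. For Angptl4 they were Entpd5 (0.997), Mrpl55 (0.994), Krt36 (0.994), Tmigd1 (0.990) and the monoamine oxidase gene Maoa (0.988). Over the same arrays Fgf21 correlated with Angptl4 at r = 0.98, with Klb at 0.78 and with Fgfr1 at -0.93.

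**Figure D3:**
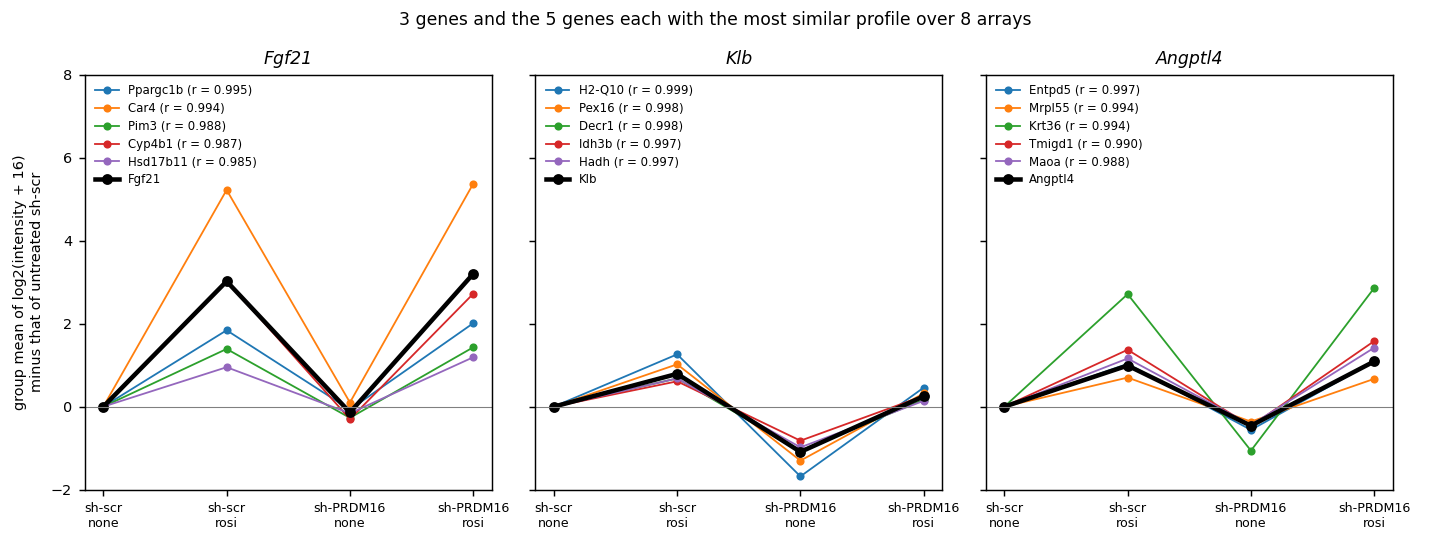
Group means of log2(intensity + 16) relative to untreated sh-scr for Fgf21, Klb and Angptl4 (black) and, for each, the 5 genes with the highest Pearson r over the 8 arrays; lines only join the points of a gene. In untreated sh-PRDM16 cells Fgf21 stands at -0.14 and Klb at -1.09.

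Among the other FGF ligands, none rose with the drug. Of 21 listed ligands 10 were bright enough to test, and 3 fell in sh-scr cells, beside 32.2% of genes overall. They were Fgf2, a broad mitogen, from 243 ± 11 (SD, n = 2) to 125 ± 12 (log2 -0.88, adjusted p = 0.0052), Fgf18 (log2 -0.57) and Fgf7 (log2 -0.55). In sh-PRDM16 cells Fgf18 (log2 -0.72) and Fgf7 (log2 -0.54) fell. On median-centred arrays 1 and 4 fell. Their median was log2 -0.42 and -0.41, against -0.31 and 0.00 for all genes. Fgf18 was higher in sh-PRDM16 than in sh-scr cells without drug (log2 0.59, adjusted p = 0.0337), and Fgf1, which can signal through all FGF receptors, was lower (log2 -1.19, adjusted p = 0.0424) at intensities of 48.4 ± 13 in sh-scr and 12.9 ± 10 in sh-PRDM16 cells. On median-centred arrays 3 ligands were higher and 0 lower, and the Fgf1 call ended (adjusted p = 0.12).

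Of the 10 further receptors and co-receptors tested, 1 rose and 5 fell with the drug in sh-scr cells, beside 32.2% of genes overall. On median-centred arrays 2 rose, with Fgfrl1 (log2 0.61, adjusted p = 0.00463) added, and 2 fell, Sdc2 and Gpc4. On the deposited scale Sdc2, a heparan sulfate carrier, fell from 1600 ± 97 to 730 ± 40 (log2 -1.11, adjusted p = 8.3e-04), Gpc4 fell by 0.72 and Gpc1 by 0.60 on the log2 scale, and Fgfr4 rose by 0.50 at a low signal (30.2 ± 5.7 to 49.1 ± 5.4). In sh-PRDM16 cells Fgfrl1, a receptor without a kinase domain, rose from 467 ± 44 to 834 ± 87 (log2 0.81, adjusted p = 0.00424), while Sdc2 and Sdc4 fell. Kl, the co-receptor gene of the α-Klotho form, lay under the filter, at mean intensities of 1.7 to 9.75. Without drug, Fgfrl1 (log2 -0.62) and Gpc3 (-0.81) were lower and Gpc1 (0.63) higher in sh-PRDM16 cells. On median-centred arrays 5 of the 10 were higher and 2 lower.

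Downstream of the receptors, adaptor and kinase genes changed little. Of 12 tested, 4 fell in sh-scr cells with the drug, beside 32.2% of genes overall. Shc1, Nras, Gab1 and Braf fell by 0.58, 0.54, 0.53 and 0.49 on the log2 scale. On median-centred arrays 0 fell and 1 rose. In sh-PRDM16 cells 0 of 12 changed on the deposited scale (limma, adjusted p under 0.05), and on median-centred arrays 2 rose and 0 fell. Feedback and target genes of FGF and ERK signalling followed. In sh-scr cells 5 of 14 fell, near the 32.2% of genes overall. They were Egr1 (log2 -1.33), Etv4 (-1.25), Ier2 (-0.99), Spry1 (-0.66) and Phlda1 (-0.52), the last of these not on median-centred arrays. In sh-PRDM16 cells Dusp9, an ERK phosphatase, rose from 49.4 ± 18 to 284 ± 36 (log2 2.22, adjusted p = 8.3e-05; in sh-scr cells it rose on median-centred arrays alone, by log2 0.59), Fos rose by 0.68, and Egr1 fell by 0.72 on the log2 scale. On median-centred arrays 4 of the 14 fell in sh-PRDM16 cells, as did 4 in sh-scr cells. The difference between the responses was called for Dusp9 (log2 1.92, adjusted p = 0.0224) and Etv4 (log2 1.82, adjusted p = 0.0331), but on median-centred arrays for neither (adjusted p = 0.0606 and 0.17). Slc2a1, the glucose transporter gene that FGF21 is known to raise in adipocytes, did not pass with the drug, at 2820 ± 58 and 2590 ± 75 in sh-scr cells and 3400 ± 740 and 3150 ± 170 in sh-PRDM16 cells.

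No relative of Angptl4 rose with it. Of 7 angiopoietins, angiopoietin-like factors and receptors tested, 4 fell in sh-scr cells: Angpt2, an endothelial ligand (log2 -0.81), the integrin gene Itgb1 (-0.68), Tek, the angiopoietin receptor (-0.58), and Angptl8 (-0.56), which acts on lipoprotein lipase inhibition with its relatives. Of all genes 32.2% fell there. On median-centred arrays 2 fell in sh-scr cells, without Tek (-0.29, adjusted p = 0.216) and Angptl8 (-0.27, adjusted p = 0.285), and 4 in sh-PRDM16 cells. Angptl8 read 504 ± 73 and 336 ± 55 in untreated and treated sh-scr cells and 179 ± 10 and 162 ± 7.6 in sh-PRDM16 cells. It was lower in sh-PRDM16 cells without drug (log2 -1.40, adjusted p = 5.5e-04) and with drug (log2 -0.98, adjusted p = 0.00484). In sh-PRDM16 cells Tek (log2 -1.08) and Angpt2 (-0.67) fell with the drug. Tek is also an endothelial marker. Of 8 endothelial markers tested, 4 fell with the drug in sh-scr cells (1 on median-centred arrays) and 3 in sh-PRDM16 cells on either scale, with summed intensities over 10 measured of 882 to 1052 and 518 to 604 in untreated and treated sh-scr arrays and 759 to 883 and 520 to 560 in sh-PRDM16 arrays. Their part in the Tek change was not tested.

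Next came the lipase system that ANGPTL4 acts on. Lpl itself, at 18000 ± 230 and 16700 ± 1000 in sh-scr and 13400 ± 1100 and 13800 ± 910 in sh-PRDM16 cells, did not pass with the drug. Of 12 genes of this system, Vldlr, a receptor that takes up triglyceride-rich particles, rose in sh-scr cells (log2 0.69) and 5 fell, among them Apoc2, the lipase cofactor (-0.81), Pcsk5 (-0.73), Lrp1 (-0.71) and Furin (-0.65), a protease that can cleave angiopoietin-like proteins. Of all genes 32.2% fell there, and on median-centred arrays 2 of the 12 rose and 2 fell, with Pcsk5 (adjusted p = 0.0564) and Furin (adjusted p = 0.23) no longer called. In sh-PRDM16 cells Lipg (log2 1.41), Cd36 (1.28) and Vldlr (1.10) rose and Lrp1 (-0.61) fell. The list median was log2 -0.31 and 0.01, against -0.31 and 0.00 for all genes.

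Other PPAR target genes rose alongside Fgf21 and Angptl4 in both lines. Of 21 tested, 16 rose in sh-scr cells (5.20% of all genes) and 18 in sh-PRDM16 cells (10.1%), and 0 fell in either. The counts of rises on median-centred arrays were 18 (14.2% of all genes) and 17. The medians on the deposited scale were log2 0.97 and 1.41. Acaa1b (log2 4.50 and 5.66), Pdk4 (3.51 and 3.48), Ehhadh (2.89 and 2.91) and Fabp3 (2.56 and 2.93) had the largest rises in sh-scr cells. Acaa1b has close paralogs that can share its signal. Without drug, 17 of the 21 were lower in sh-PRDM16 cells (15.5% of all genes) and 0 higher (1.99%), with a median of -0.98. With drug 8 were lower (4.62% of all genes) and 1 higher (10.6%). On median-centred arrays 16 were lower without drug and 16 with drug (12.3% of all genes with drug).

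Of 17 regulators known to act on Fgf21 or Angptl4, 3 rose and 4 fell with the drug in sh-scr cells (5.20% and 32.2% of all genes). In sh-PRDM16 cells 5 rose and 0 fell (10.1% and 3.31% of all genes). On median-centred arrays 4 rose and 2 fell in sh-scr cells, and 6 rose and 1 fell in sh-PRDM16 cells. The co-activators Ppargc1b (log2 1.84 and 2.08) and Ppargc1a (1.46 and 1.25) and the receptor gene Ppara (2.05 and 1.75) rose in both lines. Among the 4 that fell in sh-scr cells was Rxra (-0.80). Rxrg, a PPAR partner, rose in sh-PRDM16 cells (log2 2.03), from 8.3 ± 1.7 to 85.4 ± 33. Ppara read 43.3 ± 14 and 227 ± 10 in sh-scr cells and 13.1 ± 8.9 and 79.9 ± 3.4 in sh-PRDM16 cells, so treated sh-PRDM16 cells held less of it (log2 -1.34, adjusted p = 0.00547). Of the stress regulators that can also drive Fgf21, Atf4 and Ddit3 did not pass with the drug. Atf4 read 3430 ± 110 and 3020 ± 200 in sh-scr cells and 3750 ± 420 and 3200 ± 160 in sh-PRDM16 cells. Ddit3 read 2080 ± 26 and 1800 ± 24, then 1350 ± 110 and 1530 ± 13. Atf5, of the same list, had a lower mean with the drug in sh-scr cells, at 2690 ± 69 untreated and 2010 ± 170 treated. In sh-PRDM16 cells it read 2050 ± 220 and 2020 ± 15. Only RNA was measured, and the part of these regulators in the Fgf21 change was not tested. Without drug 8 of the 17 were lower in sh-PRDM16 cells (15.5% of all genes), among them Rxrg (log2 -2.15), Mlxipl (-1.58), Ppargc1a (-1.27) and Ppara (-1.04).

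**Figure D4:**
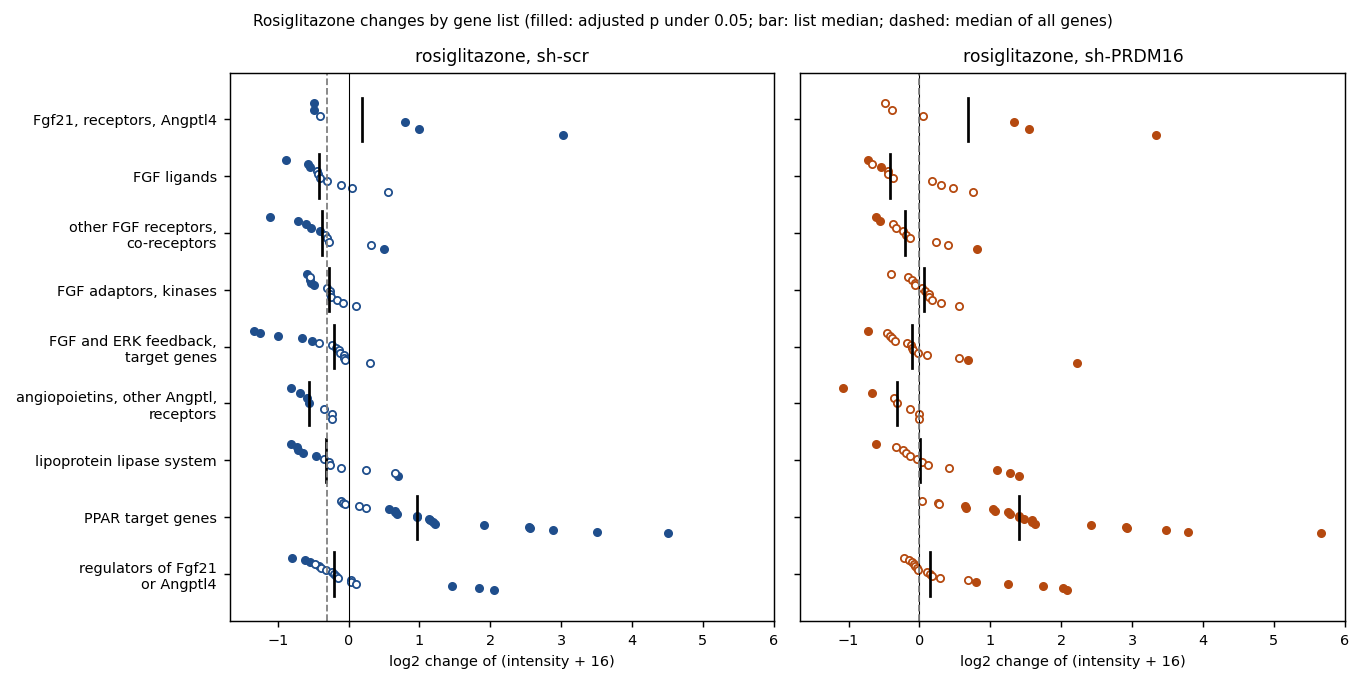
Change with rosiglitazone of each tested gene in the 9 lists, as log2 of (intensity + 16), in sh-scr cells (left) and sh-PRDM16 cells (right); filled points passed an adjusted p of 0.05, black bars are list medians and the dashed line is the median of all genes. PPAR targets lie mostly to the right, with medians of 0.97 and 1.41, while FGF ligands other than Fgf21 have medians of -0.42 and -0.41.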

How the data were processed

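Biotin-labelled cRNA was made from total RNA by T7 transcription and hybridized to mouse arrays, per the labels' protocols. The deposited intensity values were linear, from 0.1 to 22736.2, and how they were summarized or scaled is not stated in these sources. Of 22690 probe sets, 20380 had 1 gene (12393 genes, 12369 matched in RefSeq by Entrez identifier, 0 symbols changed), 691 several and 1555 none, and 64 were controls. Array medians spanned log2 0.38, under a limit of 0.5, so the scale was kept. limma 3.58.1 (R 4.3.3, lmFit, eBayes) was fitted to log2(intensity + 16) of 9294 genes on all 8 arrays with 1 mean per group (4 residual degrees of freedom, prior 5.31), and separately to all 20380 probe sets. Adjustment was Benjamini-Hochberg, two-sided. An exact test of 2 against 2 arrays cannot go below p = 0.333.

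The members and lists were chosen with earlier results of these data known. All 6 measured genes are named. Lists give counts and at most the 4 genes with the largest called change, and likeness the 5 nearest genes among those whose group means span log2 1 or more. Slc2a1, Lpl, Kl, Atf4, Atf5, Ddit3, Phlda1, Furin, Fgfr4 and Acta1 lie outside that rule in a contrast where they are named, and were chosen after their values were seen. The scripts were tested on simulated data. The alternatives were median and quantile scaling, no filter or one of 50%, the mean of probe sets, a trended prior, pseudocounts of 1 and 64, the replicate block, fits to the compared arrays alone, and the omission of each array in turn.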

Additional observations from a re-analysis of the deposited data

Results flagged for a closer look

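On the deposited scale, probe set 1417130_s_at of Angptl4 was lower in both untreated sh-PRDM16 arrays than in both untreated sh-scr arrays. With drug it was higher in both sh-PRDM16 arrays than in both sh-scr arrays. The test of that difference in direction gave log2 0.56 (adjusted p = 0.158 in limma) and did not pass. The median difference between the drug responses over all genes was log2 0.33. On median-centred arrays the treated values of 1417130_s_at overlapped, at 13.1 and 13.18 in sh-scr and 13.21 and 13.02 in sh-PRDM16 cells (log2 scale). The change between treated lines was log2 -0.03 there. The dimmer probe set, 1453410_at, overlapped between treated lines on the deposited scale, at 119.4 and 103.6 in sh-scr and 116.0 and 118.6 in sh-PRDM16 cells.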

How the results depend on the processing

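The rises of Fgf21, Klb and Angptl4 in both lines and the fall of Klb in untreated sh-PRDM16 cells kept direction and call under every alternative that gave them a value. The number of changed genes with rosiglitazone in sh-scr cells, 5, became 3 on median-centred arrays, on quantile-normalized arrays and with the dimmer 50% of genes left out (3 members tested), and 3 to 5 without 1 array. In sh-PRDM16 cells the count of 3 became 4, with the fall of Fgfr1 added, on median-centred and quantile-normalized arrays, with the mean of probe sets, with a trended prior and with a pseudocount of 64. With the dimmer 50% left out Fgfr1 was called too (3 genes called, all 3 tested), and without 1 array the count was 3 to 3. Without drug the 2 genes lower in sh-PRDM16 cells became 1, Klb, on median-centred and quantile-normalized arrays, with no filter, with the mean of probe sets, with a pseudocount of 1, with the replicate block, with only the arrays compared, and without any 1 array (1 to 1). With drug the count of 1 became 0 with the mean of probe sets and was 0 to 1 without 1 array. The difference of responses went from 0 to 2 genes with the dimmer 50% left out and to 1 with a trended prior (0 to 0 without 1 array). The cause of these shifts was not tested.

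Signs turned only for changes that were not called. On median-centred arrays this held for Fgf21 (log2 0.05) and Fgfr2 (0.03) without drug between lines, Angptl4 with drug between lines (-0.03) and the Fgfr1 difference of responses (-0.21). On quantile-normalized arrays it held for Fgfr2 (0.03) and the Fgfr1 difference (-0.25), and with a pseudocount of 1 for the Fgfr3 difference (0.46). Without 1 array, Fgf21 ran from -0.49 to 0.21 between untreated lines and from -0.02 to 0.67 in the difference of responses. Fgfr2 ran from -0.14 to 0.23 with drug in sh-PRDM16 cells and from -0.34 to 0.03 between untreated lines. Fgfr3 ran from -1.19 to 0.39 with drug in sh-scr cells, -1.12 to 0.16 in sh-PRDM16 cells, -0.09 to 1.20 between untreated lines, -0.32 to 1.26 between treated lines and -0.87 to 0.71 in the difference.

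Same-numbered arrays did not deviate together (correlations of -0.02 to 0.05 between groups), so the numbers gave no pairing. With the replicate block 1 of the 6 genes changed without drug between lines and 3092 in place of 3474 of all genes were called for rosiglitazone in sh-scr cells. Where a group keeps a lone array, it is assumed to vary like the others. Dim probe sets of Klb, Fgfr2 and Fgfr3, read without detection calls, limit what can be said of them.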
